A study of Saccharomyces cerevisiae with 30 samples.

Results

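The 10 genes described here encode the glycine cleavage system, the serine hydroxymethyltransferases and further folate and formate enzymes of one-carbon metabolism in the budding yeast Saccharomyces cerevisiae: GCV1, GCV2, GCV3, LPD1, SHM1, SHM2, MTD1, MIS1, ADE3 and FDH1. They were picked by name, as 10 of the 7127 genes in the deposited table, because GCV2, GCV3 and SHM2 differed between strains at 180 min. The values at 0 and 180 min are therefore given as a description, and tests compare the libraries from 30, 60 and 120 min. The libraries compared came from the same 3 independent experiments as the ones from 180 min. The libraries from 0 and 180 min enter these tests through the estimate of the spread.

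RNA from whole populations of haploid MATa cells of the S288c background was sequenced at 5 times after addition of 1 µM beta-estradiol, in YPD, a rich medium with glucose, at 30 °C. Cells of the CEN4 control strain had the genotype ura3::GDP-cre EBD78:LEU2 and an unmodified centromere on chromosome IV. Cells of the second strain had the genotype lox-CEN4-lox:KanMX GDP-creEBD78:LEU2, with lox sites on both sides of that centromere. They are called CEN4* before excision and cen4- afterwards, and are referred to below as the excised strain. Both strains carried met15-delta-0, ura3-delta-0, leu2-delta-0 and his3-delta-1. Both also carried the estradiol-dependent Cre recombinase and received beta-estradiol. The labels give the ura3 locus for the Cre construct of the control strain only, and lox sites and KanMX for the second strain only. What share of the cells had excised the centromere at each time was not measured here. Each strain and time had 3 libraries, which gave 10 groups and 30 libraries.

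The mitochondrial glycine cleavage system splits glycine into carbon dioxide and ammonia and hands the remaining carbon to tetrahydrofolate. Serine hydroxymethyltransferases transfer the same kind of carbon between serine and glycine, in the mitochondria and in the cytosol, and the folate dehydrogenases and synthetases move it between oxidation states, with formate as the form that crosses between the compartments. The folate-bound carbon is used to make purines, thymidylate and methionine. In yeast the GCV genes are known to be induced by glycine, and the Myb-type activator Bas1, together with Pho2, is known to act on purine genes and on several of the genes described here.

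The sequences before the GCV genes, LPD1, SHM2 and MTD1 are shown because 5 of these 6 genes had similar strain differences and LPD1 did not. Each window runs 5′ to 3′ on the gene's own strand from 250 bases before the start codon to base 50 of the coding sequence, and was cut from the RefSeq assembly R64. A pair of short motifs of 6 bases were searched on both strands and are in capitals: TGACTC, the core of sites of Bas1 and of the amino acid starvation activator Gcn4 (GAGTCA on the other strand), and CTTCTT, a motif of the glycine response of the GCV genes (AAGAAG on the other strand). The motifs share no overlapping match in these windows, apart from a pair of CTTCTT matches in MTD1 that overlap each other.
GCV1 (chrIV:485316-485615, minus strand): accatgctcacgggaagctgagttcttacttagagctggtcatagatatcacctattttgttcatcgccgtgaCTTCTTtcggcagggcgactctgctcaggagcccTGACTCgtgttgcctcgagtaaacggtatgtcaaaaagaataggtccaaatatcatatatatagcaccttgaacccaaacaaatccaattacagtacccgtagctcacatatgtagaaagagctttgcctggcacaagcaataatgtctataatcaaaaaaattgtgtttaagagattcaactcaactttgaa
GCV2 (chrXIII:637250-637549, plus strand): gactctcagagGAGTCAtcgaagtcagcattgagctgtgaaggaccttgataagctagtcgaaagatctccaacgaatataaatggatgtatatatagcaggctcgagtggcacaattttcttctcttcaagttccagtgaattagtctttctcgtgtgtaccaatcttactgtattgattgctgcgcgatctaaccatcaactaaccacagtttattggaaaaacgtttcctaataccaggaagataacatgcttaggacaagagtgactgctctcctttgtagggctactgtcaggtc
GCV3 (chrI:58413-58712, minus strand): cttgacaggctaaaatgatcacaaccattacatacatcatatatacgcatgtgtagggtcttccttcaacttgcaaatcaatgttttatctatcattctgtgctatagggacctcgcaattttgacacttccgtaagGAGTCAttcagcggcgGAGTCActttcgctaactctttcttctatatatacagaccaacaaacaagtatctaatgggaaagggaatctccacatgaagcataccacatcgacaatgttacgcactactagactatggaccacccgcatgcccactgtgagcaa
LPD1 (chrVI:103078-103377, minus strand): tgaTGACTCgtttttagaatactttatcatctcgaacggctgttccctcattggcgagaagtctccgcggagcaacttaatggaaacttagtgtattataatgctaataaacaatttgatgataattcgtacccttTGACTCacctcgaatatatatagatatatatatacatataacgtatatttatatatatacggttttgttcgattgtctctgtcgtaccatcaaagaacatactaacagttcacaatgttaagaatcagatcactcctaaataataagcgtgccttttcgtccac
SHM2 (chrXII:259352-259651, minus strand): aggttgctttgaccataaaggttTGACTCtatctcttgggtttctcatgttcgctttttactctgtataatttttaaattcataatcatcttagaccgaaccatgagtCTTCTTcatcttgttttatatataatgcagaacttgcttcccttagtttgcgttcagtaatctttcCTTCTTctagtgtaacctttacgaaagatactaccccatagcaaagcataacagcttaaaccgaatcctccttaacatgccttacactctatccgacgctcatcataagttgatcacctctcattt
MTD1 (chrXI:590145-590444, plus strand): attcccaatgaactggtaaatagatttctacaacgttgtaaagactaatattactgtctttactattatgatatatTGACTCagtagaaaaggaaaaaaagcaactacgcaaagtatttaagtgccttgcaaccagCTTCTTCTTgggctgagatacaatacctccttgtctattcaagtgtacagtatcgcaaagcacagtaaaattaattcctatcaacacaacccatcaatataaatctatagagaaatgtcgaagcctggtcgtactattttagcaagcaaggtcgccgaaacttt

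TGACTC was present in 7 of the 10 windows, against 7.97% of the 6007 windows of the same length before annotated genes of R64. GCV3 and LPD1 had 2 matches each, and 0.516% of all windows had 2 or more. GCV1, GCV2, SHM2, MTD1 and ADE3 had 1 match each, and SHM1, MIS1 and FDH1 had none in this window. CTTCTT was present in 3 of the 10 windows, those of GCV1, SHM2 and MTD1, against 36.0% of all windows. SHM2 and MTD1 had 2 matches of CTTCTT each, and 8.72% of all windows had 2 or more. LPD1 thus had TGACTC matches like GCV3, while its transcript did not follow that of GCV3, as described below. A match is a description of the letters, and binding was not measured here.

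**Figure D1:**
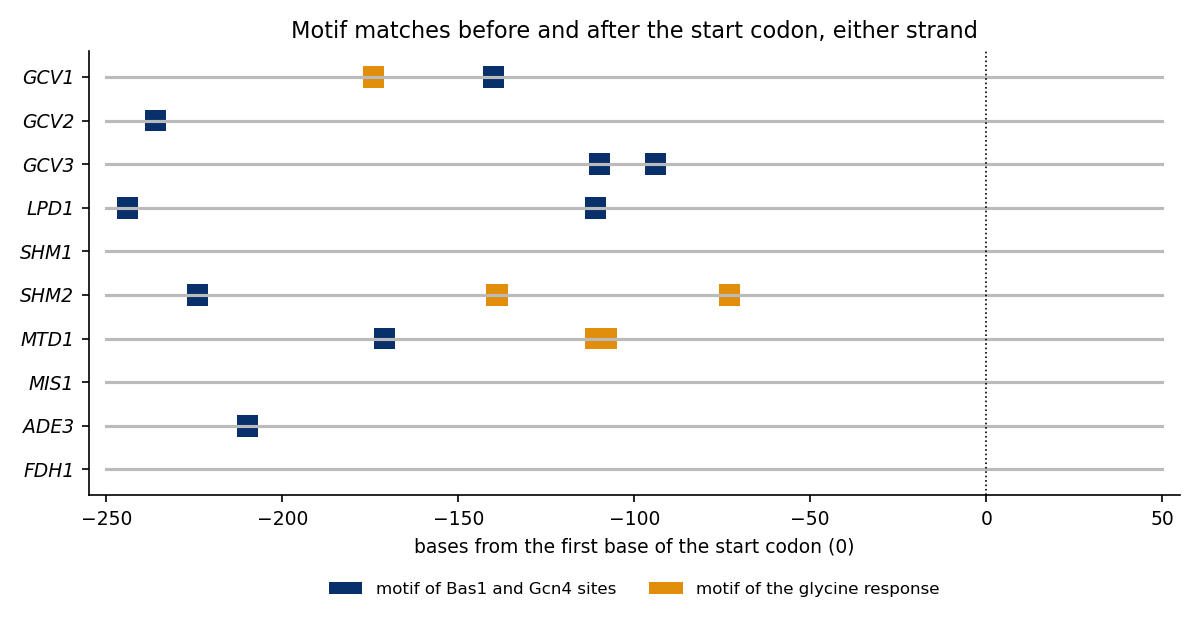
Positions of the motif matches in the windows before the 10 genes, in bases from the first base of the start codon, with both motifs drawn as bars of 6 bases. Dark bars mark the Bas1 and Gcn4 core and orange bars the motif of the glycine response; SHM1, MIS1 and FDH1 have no match, and the matches of GCV3 lie at -113 and -97.

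Libraries held 8218002 to 14956813 reads, and values below are normalised counts, that is reads divided by a size factor of the library. All 10 genes passed the filter, a mean of 10 normalised counts or more. Differences are on the log2(value + 1) scale, as excised strain minus CEN4 or later minus earlier time, and were tested with limma over 5948 genes with Benjamini-Hochberg adjustment within a comparison. Genes with an adjusted p below 0.05 are referred to as called. The p-values set a difference against the spread between the 3 libraries of a group. That spread was estimated for each gene over all 10 groups together and moderated with the other genes. All 7 markers of MATa cells were detected, with a summed level of 22900 to 54100 normalised counts per library. The 6 markers of MATalpha cells summed to 586 to 781, most of it from SAG1 (401 to 565), and HMLALPHA1 and MATALPHA1 were at 0. URA3 and MET17, deleted in both strains, were at 0 in all 30 libraries. HIS3 was detected, at 533 to 831 normalised counts, although both strains carried his3-delta-1. LEU2, the marker of the Cre construct, differed between the strains already before excision, with 3680 ± 152 normalised counts (SD, n = 3) in the control and 2049 ± 52.1 in CEN4* libraries at 0 min. At 120 min it was at 5962 ± 281 in CEN4 and 2437 ± 74.5 in cen4- libraries, and the part of this strain difference in the results was not tested. In these bulk samples, fewer cells of a kind and less RNA per cell cannot be told apart.

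Over the tested times, 5 of the 10 genes (GCV1, GCV2, GCV3, SHM2 and MTD1) separated between the strains mainly from 60 to 120 min. As a description, these 5 genes lay further apart at 180 min. Their differences were then -1.69 for GCV2, -1.61 for GCV3, -1.42 for SHM2, -1.23 for GCV1 and -1.02 for MTD1. At 30 min 4 of the 10 were lower in the excised strain and none was higher, where 30.2% of all tested genes were called and 16.3% were lower. At 60 min 7 were lower and 1 was higher, with a background of 27.0% called and 13.8% lower. At 120 min 8 were lower and 1 was higher, with a background of 52.8%, of which 26.2% were lower and 26.6% higher. The median difference of the 10 genes was -0.06, -0.15 and -0.56 at these times, and that of all tested genes was -0.01, 0.00 and 0.00. At 120 min the 3 libraries of one strain did not overlap with the 3 of the other for any of the 10 genes: 9 were lower in the excised strain, against 27.9% of all tested genes, and FDH1 was higher, against 28.6%. Scaled to equal library totals, 2 of the 10 were called at 30 min and 4 at 60 min. The 60 min count was also 4 without CEN4 t60 replicate 1.

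**Figure D2:**
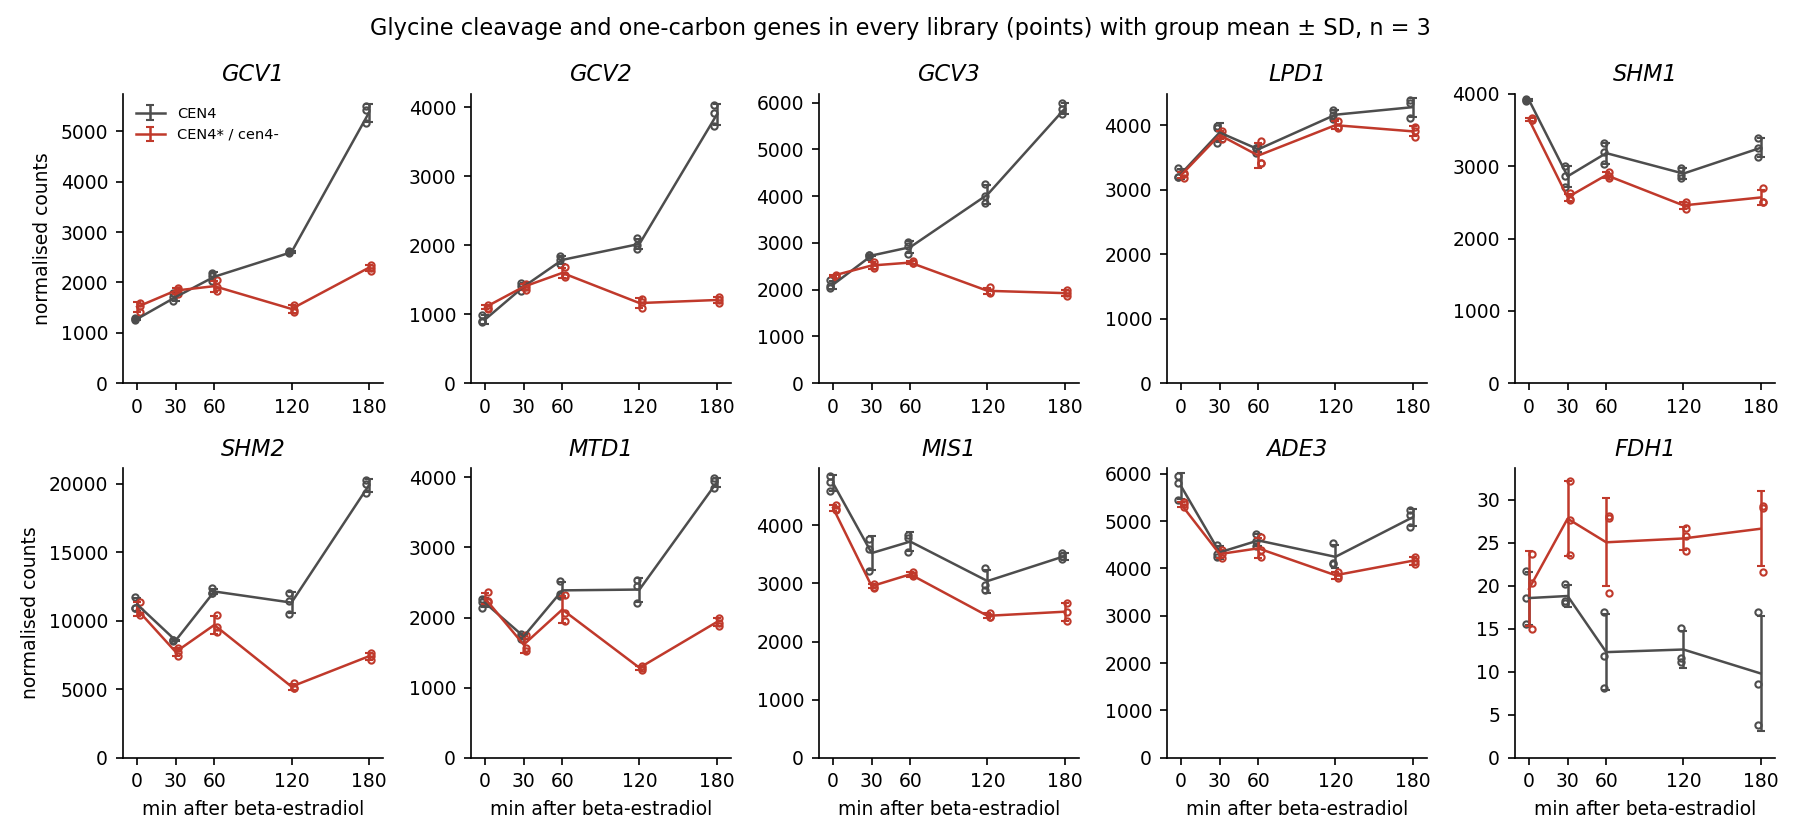
Normalised counts (vertical axes, from 0, with a scale of their own for each gene) against minutes after beta-estradiol for the 10 genes. Points are libraries, lines join group means and bars are SD of 3 libraries; grey is CEN4 and red is the excised strain. The lines of GCV1, GCV2, GCV3, SHM2 and MTD1 lie closer together until 60 min than at 120 and 180 min, while those of LPD1 stay close.

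Within the glycine cleavage system, the transcripts of the P, T and H proteins were 1.74-fold to 2.04-fold lower in the excised strain at 120 min, and that of the L protein was not called. GCV2 (YMR189W, R64 chromosome XIII, 637500 to 640604, plus strand) encodes the P protein, the decarboxylase proper, in a single exon. In CEN4 libraries GCV2 was at 897.2, 881.9 and 990 normalised counts at 0 min, at 1340, 1445 and 1412 at 30 min, at 1850, 1779 and 1731 at 60 min, at 2097, 1950 and 2007 at 120 min, and at 3912, 3727 and 4024 at 180 min. In the excised strain GCV2 was at 1071, 1096 and 1130 at 0 min, at 1441, 1355 and 1397 at 30 min, at 1685, 1570 and 1540 at 60 min, at 1088, 1178 and 1218 at 120 min, and at 1249, 1205 and 1163 at 180 min. The excised strain was thus slightly the higher one at 0 min, the groups overlapped at 30 min, and all 3 excised libraries lay below all 3 CEN4 libraries from 60 min on. The strain difference of GCV2 was 0.00 at 30 min (95% interval -0.09 to 0.09, limma adjusted p = 0.991), -0.16 at 60 min (SE 0.05, limma adjusted p = 0.00657) and -0.80 at 120 min (SE 0.05, limma adjusted p = 5.08e-23), which is 1.74-fold lower. The 60 min call was lost when scaled to equal library totals (-0.10) and without CEN4 t60 replicate 1 (-0.14).

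GCV3 (YAL044C, chromosome I, 57950 to 58462, minus strand) encodes the H protein, whose lipoyl arm carries the aminomethyl group between the other subunits. GCV3 was at 2738, 2746 and 2711 normalised counts in CEN4 and at 2509, 2459 and 2588 in cen4- libraries at 30 min, and at 2944, 2770 and 3019 against 2569, 2566 and 2608 at 60 min. At 120 min GCV3 was at 3998, 4254 and 3851 in CEN4 and at 2051, 1958 and 1923 in cen4- libraries. The cen4- libraries were the lower ones without overlap at all 3 times. The difference was -0.12 at 30 min (limma adjusted p = 0.0173), -0.17 at 60 min (limma adjusted p = 4.45e-04) and -1.03 at 120 min (SE 0.04, 95% interval -1.11 to -0.95, limma adjusted p = 5.74e-32), a 2.04-fold lower level. The 30 min call was lost when scaled to equal library totals (-0.04, limma adjusted p = 0.389) and without 1 of 3 single libraries, namely CEN4 t30 replicate 2 (-0.11), cen4- t30 replicate 1 (-0.11) or cen4- t30 replicate 2 (-0.10). As a description, GCV3 stood at 5991, 5762 and 5861 in CEN4 and at 1989, 1931 and 1863 in cen4- libraries at 180 min, and at 2042, 2205 and 2082 against 2281, 2296 and 2325 at 0 min.

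GCV1 (YDR019C, chromosome IV, 484163 to 485365, minus strand) encodes the T protein, which passes the carbon to tetrahydrofolate, and it is the only one of the 10 genes on chromosome IV, whose centromere is excised. GCV1 was at 1704, 1787 and 1640 normalised counts in CEN4 and at 1775, 1890 and 1852 in cen4- libraries at 30 min, and at 2125, 2020 and 2196 against 2042, 1914 and 1823 at 60 min. At 120 min it was at 2617, 2587 and 2598 in CEN4 and at 1557, 1455 and 1412 in cen4- libraries. The strains overlapped at 30 and 60 min and stood apart at 120 min. The difference was 0.11 at 30 min (95% interval 0.02 to 0.19, limma adjusted p = 0.0663; called as higher at 0.18 when scaled to equal library totals, at 0.12 by edgeR, and at 0.14 and 0.13 without CEN4 t30 replicate 2 and cen4- t30 replicate 1), -0.13 at 60 min (limma adjusted p = 0.0177) and -0.82 at 120 min (SE 0.04, limma adjusted p = 1.19e-24). The call at 60 min was lost when scaled to equal library totals (-0.07) and without any of 4 single libraries, namely CEN4 t60 replicate 1 or 3 (-0.13 and -0.11) and cen4- t60 replicate 2 or 3 (-0.13 and -0.10). At 180 min GCV1 stood at 5427, 5161 and 5491 in CEN4 and at 2284, 2355 and 2233 in cen4- libraries, and its excised libraries at 180 min lay above all those of 0 min (1597, 1410 and 1534). At 0 min CEN4 libraries were at 1275, 1302 and 1251, so the excised strain was then the higher one without overlap.

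LPD1 (YFL018C, chromosome VI, 101628 to 103127, minus strand) encodes the L protein, a lipoamide dehydrogenase that also serves the pyruvate and 2-oxoglutarate dehydrogenase complexes. LPD1 was at 4158, 4239 and 4089 normalised counts in CEN4 and at 4067, 3959 and 3973 in cen4- libraries at 120 min. The cen4- libraries were the lower ones without overlap, by a small margin. The difference was -0.01 at 30 min, -0.04 at 60 min and -0.06 at 120 min (95% interval -0.13 to 0.02, limma adjusted p = 0.192), so that at 120 min a difference as large as those of the GCV genes lies outside the interval. At 180 min LPD1 stood at 4342, 4109 and 4386 against 3978, 3820 and 3914, the smallest strain difference of the 10 genes at that time (-0.13).

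**Figure D3:**
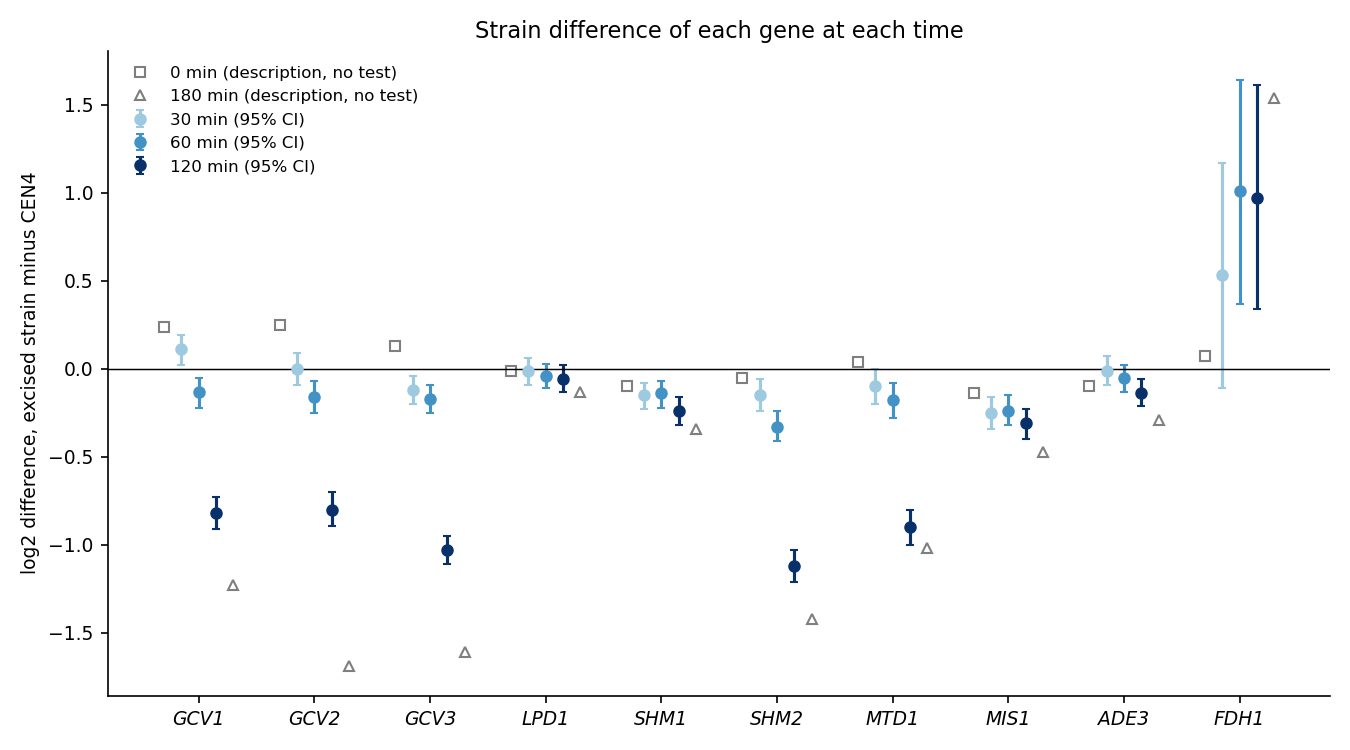
Strain difference (log2, excised strain minus CEN4) of each gene at each time. Filled points with 95% intervals are the tested times, in darker blue from 30 to 120 min, and open squares (0 min) and open triangles (180 min) are descriptions without a test. At 120 min GCV1, GCV2, GCV3, SHM2 and MTD1 lie between -1.12 and -0.80, and the other genes but FDH1 between -0.31 and -0.06.

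The cytosolic serine hydroxymethyltransferase had the largest strain difference of the 10 genes at 120 min, and the mitochondrial enzyme a small one. SHM2 (YLR058C, chromosome XII, 257992 to 259401, minus strand) encodes the cytosolic enzyme, which makes glycine and methylenetetrahydrofolate from serine or runs in reverse. In CEN4 libraries SHM2 was at 8568, 8524 and 8601 normalised counts at 30 min, at 12378, 12022 and 12031 at 60 min and at 12058, 11413 and 10521 at 120 min. In cen4- libraries SHM2 was at 7432, 7719 and 8040 at 30 min, at 10407, 9522 and 9165 at 60 min and at 5073, 5067 and 5459 at 120 min. The strains did not overlap at any of these times, and the level of cen4- libraries at 120 min was the lowest of the time course. The difference was -0.15 at 30 min (limma adjusted p = 0.00812), -0.33 at 60 min (limma adjusted p = 1.54e-07) and -1.12 at 120 min (SE 0.04, 95% interval -1.21 to -1.03, limma adjusted p = 1.58e-23), a 2.18-fold lower level. The 30 min call was lost when scaled to equal library totals (-0.08, limma adjusted p = 0.159) and without cen4- t30 replicate 1 (-0.12, limma adjusted p = 0.0581). At 0 min SHM2 stood at 11716, 10966 and 10921 in CEN4 and at 11411, 10688 and 10412 in CEN4* libraries, and at 180 min at 19996, 19322 and 20309 against 7646, 7151 and 7428. The cen4- libraries of SHM2 at 180 min thus lay above those of 120 min, but below all CEN4* libraries of 0 min.

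SHM1 (YBR263W, chromosome II, 736264 to 737736, plus strand) encodes the mitochondrial serine hydroxymethyltransferase. SHM1 was at 2977, 2881 and 2837 normalised counts in CEN4 and at 2458, 2504 and 2413 in cen4- libraries at 120 min. The strains did not overlap at 0 min either, with 3928, 3917 and 3899 in CEN4 and 3632, 3672 and 3632 in CEN4* libraries. The difference was -0.15 at 30 min (limma adjusted p = 0.00153), -0.14 at 60 min (limma adjusted p = 0.00335) and -0.24 at 120 min (SE 0.04, limma adjusted p = 5.40e-07). Scaled to equal library totals, the calls at 30 and 60 min were lost (-0.08 at both times).

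Among the folate enzymes the monofunctional dehydrogenase MTD1 had a strain difference of the size seen for the GCV genes, and both C1-tetrahydrofolate synthases had smaller ones. MTD1 (YKR080W, chromosome XI, 590395 to 591357, plus strand) encodes the cytosolic NAD-dependent methylenetetrahydrofolate dehydrogenase. In CEN4 libraries MTD1 was at 1764, 1688 and 1738 normalised counts at 30 min, at 2518, 2339 and 2304 at 60 min and at 2541, 2447 and 2208 at 120 min. In cen4- libraries MTD1 was at 1526, 1566 and 1746 at 30 min, at 2323, 2064 and 1954 at 60 min and at 1286, 1254 and 1309 at 120 min. The groups overlapped at 30 and 60 min and stood far apart at 120 min. The difference was -0.10 at 30 min (limma adjusted p = 0.115; called at -0.16 without cen4- t30 replicate 3), -0.18 at 60 min (limma adjusted p = 0.00546) and -0.90 at 120 min (SE 0.05, limma adjusted p = 5.35e-21), a 1.87-fold lower level. The 60 min call was lost when scaled to equal library totals (-0.11), without CEN4 t60 replicate 1 (-0.14) and without cen4- t60 replicate 3 (-0.12). At 180 min MTD1 stood at 3942, 3847 and 3982 in CEN4 and at 1996, 1926 and 1882 in cen4- libraries.

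MIS1 (YBR084W, chromosome II, 411054 to 413981, plus strand) encodes the mitochondrial C1-tetrahydrofolate synthase, and ADE3 (YGR204W, chromosome VII, 905934 to 908774, plus strand) the cytosolic one, each a single protein with dehydrogenase, cyclohydrolase and formate ligase activities. MIS1 was at 3772, 3587 and 3208 normalised counts in CEN4 and at 2922, 2946 and 2991 in cen4- libraries at 30 min, and at 3264, 2972 and 2887 against 2419, 2420 and 2490 at 120 min. Its difference was of similar size at the tested times, with -0.25, -0.24 and -0.31 at 30, 60 and 120 min (limma adjusted p = 5.97e-06, 2.08e-05 and 1.46e-08), and the strains did not overlap at 0 min either (4748, 4847 and 4582 in CEN4 against 4354, 4288 and 4257 in CEN4* libraries). ADE3 was at 4526, 4115 and 4091 in CEN4 and at 3846, 3791 and 3929 in cen4- libraries at 120 min. Its difference was -0.01 at 30 min, -0.05 at 60 min and -0.14 at 120 min (limma adjusted p = 0.00229). ADE3 was also lower without overlap at 0 min, with 5961, 5439 and 5813 in CEN4 against 5408, 5351 and 5306 in CEN4* libraries. The call of ADE3 at 120 min ended when scaled to equal library totals (0.00, limma adjusted p = 0.963) and without CEN4 t120 replicate 1 (-0.09, limma adjusted p = 0.0645).

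FDH1 (YOR388C, chromosome XV, 1071793 to 1072923, minus strand) encodes formate dehydrogenase, which oxidises formate to carbon dioxide, and it was the single gene of the 10 that was called higher in the excised strain at 60 and 120 min. It had few reads, and 84.2% of its stretches of 50 bases occur elsewhere in the genome, so that its values are uncertain. FDH1 was at 18.03, 20.24 and 18.19 normalised counts in CEN4 and at 23.55, 32.24 and 27.65 in cen4- libraries at 30 min, and at 8.096, 11.86 and 16.92 against 19.14, 28.17 and 27.88 at 60 min. At 120 min FDH1 was at 11.13, 15.05 and 11.61 in CEN4 and at 25.75, 24.08 and 26.7 in cen4- libraries. The cen4- libraries were the higher ones without overlap at all 3 times. The difference was 0.53 at 30 min (95% interval -0.11 to 1.17, limma adjusted p = 0.211), 1.01 at 60 min (SE 0.32, limma adjusted p = 0.0134) and 0.97 at 120 min (SE 0.32, limma adjusted p = 0.00811). The 60 min call was lost without CEN4 t60 replicate 1 (0.76) and without cen4- t60 replicate 2 (0.91).

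Within each strain, GCV1, GCV2, GCV3, SHM2 and MTD1 rose between 30 and 120 min in CEN4 cells and fell over the same interval in cen4- cells. In CEN4 cells 6 of the 10 genes rose and 1 fell, with a background of 45.0% called and 21.4% higher. In cen4- cells none rose and 7 fell, with a background of 49.4% called and 23.6% lower. The median change of the 10 genes was 0.25 in CEN4 and -0.27 in cen4- cells, and that of all tested genes was 0.00 and 0.01. GCV1 rose by 0.61 in CEN4 cells (SE 0.04, limma adjusted p = 4.78e-18) and fell by 0.32 in cen4- cells (SE 0.04, limma adjusted p = 1.19e-08). GCV2 changed by 0.53 in CEN4 and by -0.27 in cen4- cells, and GCV3 by 0.56 and -0.35. SHM2 changed by 0.40 in CEN4 and by -0.57 in cen4- cells, and MTD1 by 0.47 and -0.33. MIS1 fell in both strains (-0.21 and -0.27). SHM1 was at 0.02 in CEN4 cells (limma adjusted p = 0.710; called at 0.09 when scaled to equal library totals) and at -0.06 in cen4- cells (limma adjusted p = 0.175). LPD1 rose in CEN4 cells (0.10, limma adjusted p = 0.0237) and was at 0.06 in cen4- cells (limma adjusted p = 0.217), where it was called when scaled to equal library totals (0.20). The LPD1 call in CEN4 cells was lost without CEN4 t30 replicate 1 (0.07) and without CEN4 t120 replicate 2 (0.09). ADE3 fell in cen4- cells (-0.16, limma adjusted p = 5.17e-04), a call that was lost when scaled to equal library totals (-0.02).

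The difference between the strains in this change was called for the same 5 genes: GCV1, GCV2, GCV3, SHM2 and MTD1 were lower and none of the 10 was higher, with a background of 13.5% called, of which 7.21% were lower. SHM2 had the largest value (-0.97, SE 0.06, limma adjusted p = 3.13e-15), followed by GCV1 (-0.92, SE 0.06), GCV3 (-0.91, SE 0.06), GCV2 (-0.80, SE 0.07) and MTD1 (-0.80, SE 0.07). Their limma adjusted p-values ranged up to 1.38e-12, for MTD1. Among the 5948 tested genes, counted from the lowest value, SHM2 ranked 20, GCV1 24, GCV3 25, GCV2 41 and MTD1 43. SHM1 was at -0.08 (95% interval -0.19 to 0.03, limma adjusted p = 0.367), MIS1 at -0.06 (95% interval -0.19 to 0.06, limma adjusted p = 0.598) and LPD1 at -0.04 (95% interval -0.15 to 0.06, limma adjusted p = 0.684). ADE3 was at -0.13 (limma adjusted p = 0.131), and edgeR on the recovered reads called it (-0.15, adjusted p = 0.0458).

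The turn came after 60 min. From 30 to 60 min SHM2 and MTD1 rose in both strains, SHM2 by 0.50 in CEN4 (limma adjusted p = 4.74e-12) and 0.33 in cen4- cells (limma adjusted p = 1.30e-07), and MTD1 by 0.46 (limma adjusted p = 1.75e-10) and 0.39 (limma adjusted p = 1.52e-08). GCV2 rose by 0.35 in CEN4 and by 0.19 in cen4- cells over the same interval (limma adjusted p = 9.82e-09 and 8.09e-04). In all, 5 of the 10 genes rose and LPD1 fell in CEN4 cells from 30 to 60 min (background 30.1%), and 4 rose and LPD1 fell in cen4- cells (background 31.2%). From 60 to 120 min 8 of the 10 fell in cen4- cells and LPD1 rose (0.18), with a background of 50.4% called and 25.4% lower, and the largest falls were those of SHM2 (-0.90, limma adjusted p = 3.64e-20), MTD1 (-0.72, limma adjusted p = 3.68e-17) and GCV2 (-0.46, limma adjusted p = 6.46e-13). In CEN4 cells 4 rose and 3 fell from 60 to 120 min, with a background of 45.9%: GCV3 rose by 0.47, GCV1 by 0.30, LPD1 by 0.20 and GCV2 by 0.18, while MIS1 (-0.29), SHM1 (-0.13) and ADE3 (-0.11) fell. SHM2 was at -0.10 (limma adjusted p = 0.0529) and MTD1 at 0.01 (limma adjusted p = 0.940) in CEN4 cells over that interval.

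**Figure D4:**
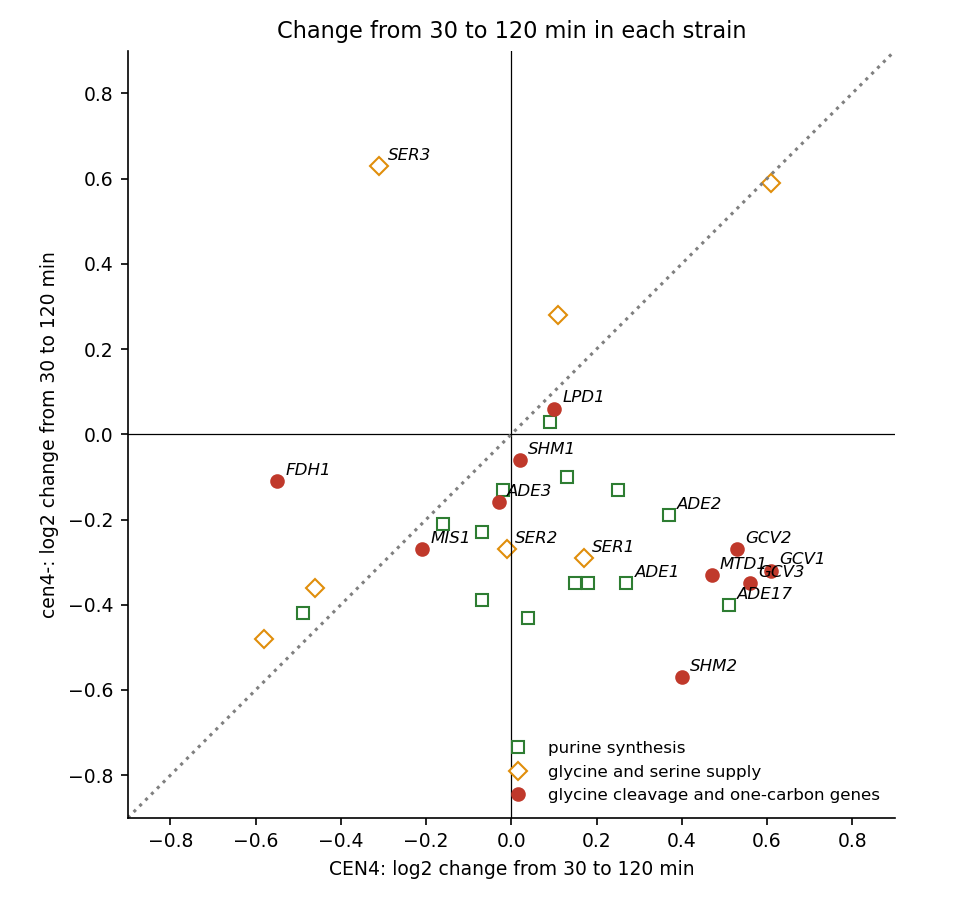
Change from 30 to 120 min (log2) in cen4- cells (vertical axis) against the change in CEN4 cells (horizontal axis), with the dotted line marking equal change. Red circles are the 10 glycine cleavage and one-carbon genes, green squares the purine synthesis list and orange diamonds the glycine and serine supply list. GCV1, GCV2, GCV3, SHM2 and MTD1 lie at the lower right, between 0.40 and 0.61 in CEN4 and between -0.57 and -0.27 in cen4- cells.

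Levels of the 10 genes were compared with each other only per kilobase of coding sequence, on the scale of mean normalised counts per kilobase. In CEN4 cells at 120 min SHM2 and GCV3 were the most abundant, GCV3 at 7865 per kilobase. GCV2 was at 649.9 and GCV1 at 2162 per kilobase in the same group, and LPD1 at 2775. In cen4- cells at 120 min GCV3 was at 3855, SHM2 at 3688, LPD1 at 2666, GCV1 at 1226 and GCV2 at 374 per kilobase. MTD1 was at 2491 per kilobase in CEN4 and at 1332 in cen4- cells, MIS1 at 1039 and 834.4, ADE3 at 1494 and 1357, and SHM1 at 1968 and 1669. FDH1 was at 11.1 and 22.6 per kilobase. LPD1 was thus above GCV1 and GCV2 per kilobase in both strains.

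Across the 10 groups, GCV1, GCV2, GCV3, SHM2 and MTD1 shared the group with their highest mean, CEN4 at 180 min, which no library of another group reached. For GCV2 the order from the lowest mean ran from CEN4 at 0 min (923 ± 58.5, SD, n = 3) over CEN4* at 0 min (1099 ± 29.8), cen4- at 120 min (1161 ± 66.5) and cen4- at 180 min (1206 ± 43.4). The libraries of CEN4* at 0 min and cen4- at 120 and 180 min overlapped from each group to the next. For GCV3 the lowest groups were cen4- at 180 min (1928 ± 62.7) and at 120 min (1977 ± 65.8) and CEN4 at 0 min (2110 ± 85.1), again overlapping from each to the next. For SHM2 the lowest group was cen4- at 120 min (5200 ± 225), which overlapped with no other, followed by cen4- at 180 min (7408 ± 248) and cen4- at 30 min (7730 ± 304), which overlapped. MTD1 had its lowest mean in cen4- cells at 120 min too (1283 ± 27.7). SHM1, MIS1 and ADE3 had their highest means in CEN4 cells at 0 min and their lowest in cen4- cells at 120 min.

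Among neighbouring pathways, most genes of purine synthesis, which uses formyl-tetrahydrofolate, were lower in cen4- cells as well. At 120 min 12 of 14 purine genes were lower and 1 was higher (median -0.48, against 0.00 over all tested genes, with 52.8% called). ADE17, which joins the last folate-borne carbon to the purine ring, was at 11027, 10468 and 9806 normalised counts in CEN4 and at 4092, 4079 and 4436 in cen4- libraries, a difference of -1.31 (SE 0.04, limma adjusted p = 1.88e-25). ADE1 (-0.91, limma adjusted p = 8.50e-17) and ADE2 (-0.85, limma adjusted p = 4.22e-20), enzymes of the middle of the pathway, were lower too. At 30 min 9 of the 14 purine genes were lower and 2 higher (median -0.16), against 30.2% of all tested genes called and 16.3% lower. ADE17 was then at -0.40 (limma adjusted p = 2.25e-09). As a description, ADE17, ADE1 and ADE2 were lower without overlap before excision too. So were ADE5,7, ADE6, ADE8, ADE12 and ADE13. The means of ADE4, IMD3 and GUA1 were lower with overlap, and those of ADE16, IMD2 and IMD4 were higher. The means of ADE17 at 0 min were 11231 in CEN4 and 9925 in CEN4* libraries. Those of ADE1 were 8480 and 7587, and those of ADE2 4427 and 3944. The change from 30 to 120 min differed between the strains for 10 of the 14, all lower, against 13.5% of all tested genes. TGACTC was present in 7 of the 14 windows before purine genes, among them those of ADE1, ADE2 and ADE17, against 7.97% of all windows.

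Genes that supply serine and glycine went in both directions. At 120 min 3 of 7 were higher and 2 lower (median 0.08), against 26.6% of all tested genes higher and 26.2% lower. By edgeR 3 of the 7 in all were called. SER3, a phosphoglycerate dehydrogenase at the start of serine synthesis, was at 422, 428.3 and 403.2 normalised counts in CEN4 and at 936.9, 956.1 and 950.6 in cen4- libraries, higher by 1.18 (SE 0.06, limma adjusted p = 1.64e-25). SER3 shares 0.808% of its stretches of 50 bases with other places in the genome, and it overlaps the non-coding gene SRG1, whose reads cannot be told apart from its own in the overlap. SER1, the transaminase (-0.56, limma adjusted p = 2.54e-18), and SER2, the phosphatase (-0.47, limma adjusted p = 3.61e-14), of the same route were lower.

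In the remaining lists no direction prevailed at 120 min, when 52.8% of all tested genes were called, 26.6% higher and 26.2% lower. Of 13 genes of folate synthesis and use 3 were higher and 5 lower (median -0.07), with the mitochondrial methionyl-tRNA formyltransferase FMT1 (0.75, limma adjusted p = 5.82e-07) and the methylenetetrahydrofolate reductase MET13 (0.56, limma adjusted p = 5.28e-10) higher and the dihydrofolate reductase DFR1 (-0.56, limma adjusted p = 2.85e-12) lower. Of 5 genes of the methyl cycle 2 were higher and 2 lower (median -0.05). SAM2, an S-adenosylmethionine synthetase (0.45, limma adjusted p = 7.73e-12), and MET6, the methionine synthase that takes the methyl group from folate (0.19, limma adjusted p = 2.01e-05), were higher, and the adenosine kinase ADO1 (-0.20, limma adjusted p = 6.53e-06) was lower. Of 8 genes of lipoyl enzymes and lipoate synthesis 2 were higher and 3 lower (median -0.03), with the 2-oxoglutarate dehydrogenase subunit KGD1 (0.28, limma adjusted p = 2.78e-08) and PDX1, the dihydrolipoamide dehydrogenase-binding protein (0.18, limma adjusted p = 8.31e-04), higher and the lipoate synthase LIP5 (-0.23, limma adjusted p = 4.35e-06) lower. The calls of ADO1 (-0.06) and LIP5 (-0.09) were lost when scaled to equal library totals. As a description, DFR1, ADO1 and LIP5 were lower without overlap before excision too, and FMT1 and KGD1 were higher. MET6 was then lower without overlap. The means of DFR1 at 0 min were 711.1 in CEN4 and 586.1 in CEN4* libraries.

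Of the regulators, BAS1 was at 813.9, 714.2 and 692.4 normalised counts in CEN4 and at 809.1, 795.5 and 709.4 in cen4- libraries at 120 min. The BAS1 groups overlapped, and its difference was 0.06 (95% interval -0.05 to 0.17, limma adjusted p = 0.351), which became a call when scaled to equal library totals (0.20, limma adjusted p = 0.00104) and without CEN4 t120 replicate 1 (0.13, limma adjusted p = 0.0491). PHO2, its partner, was at 540, 450.4 and 508.7 in CEN4 and at 609.2, 668 and 630.2 in cen4- libraries, higher by 0.35 (limma adjusted p = 1.94e-06). GCN4, which is controlled mainly at translation, was at 9280, 10506 and 9068 in CEN4 and at 8144, 8211 and 8545 in cen4- libraries, a difference of -0.21 (limma adjusted p = 1.67e-06), a call that was lost when scaled to equal library totals (-0.07, limma adjusted p = 0.0718). Transcript levels of these regulators do not measure their activity.

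**Figure D5:**
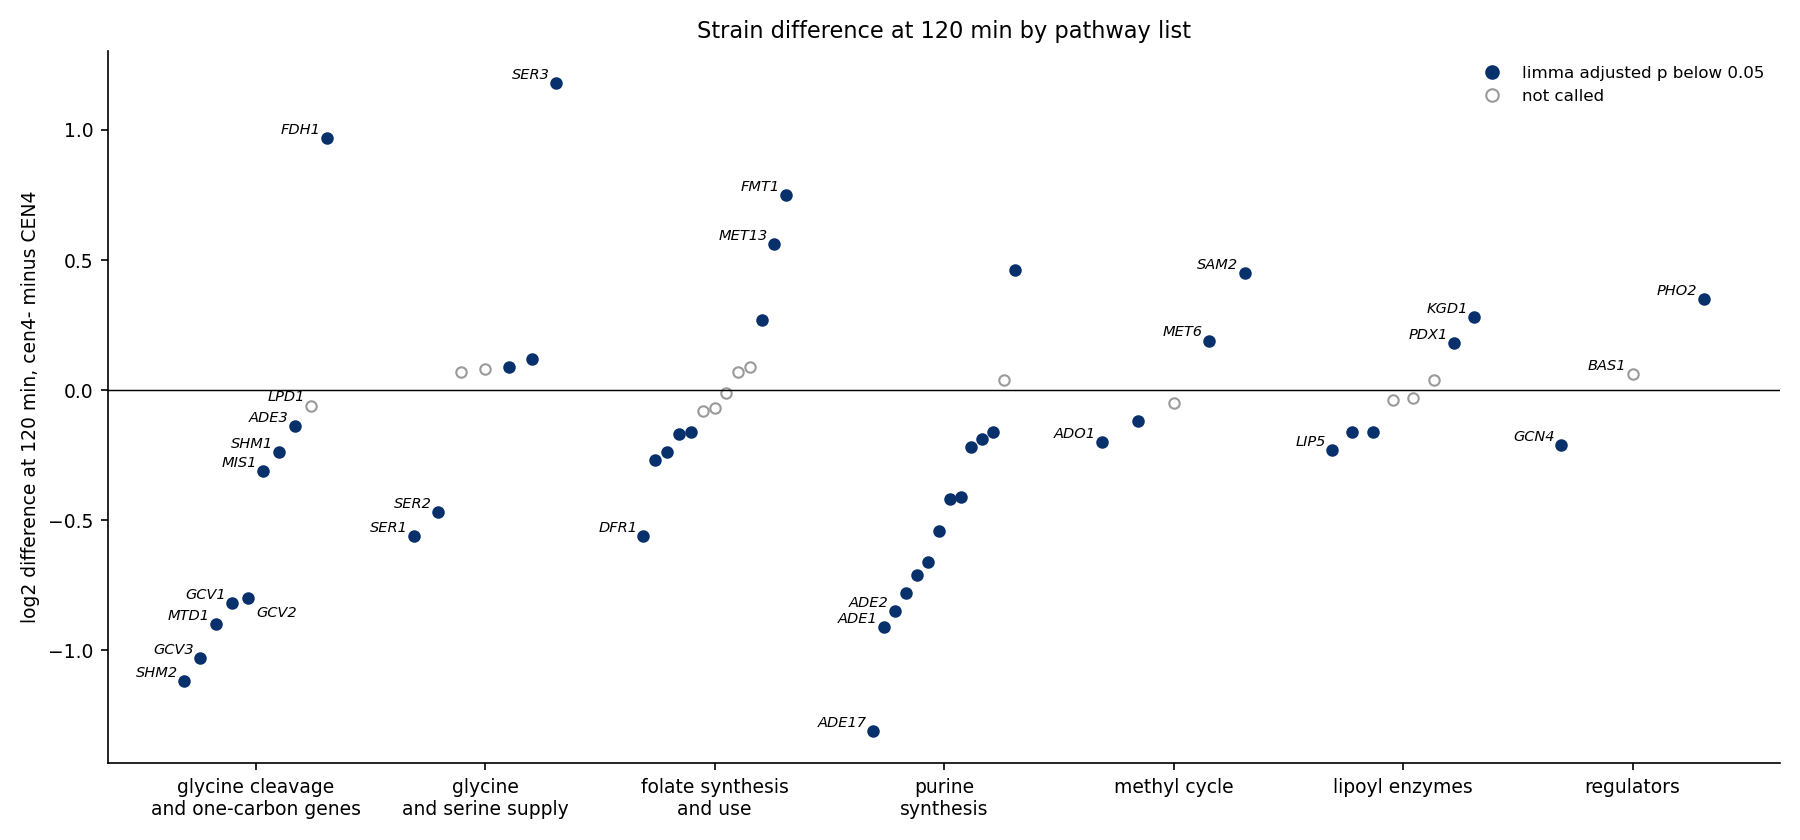
Strain difference at 120 min (log2, cen4- minus CEN4) of the 10 glycine cleavage and one-carbon genes and of the genes of 6 pathway lists, ordered within each list. Filled points are called and open points are not. In the purine synthesis list 12 of 14 genes are called lower, with ADE17 at -1.31, and SER3 is highest of all the points at 1.18.

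The genes with the pattern most like that of GCV2, by Pearson's r over the 10 group means of log2(value + 1), were GCV3 (0.947) and GCV1 (0.944), followed by VAM7, AIM45 and CIR1 (0.931, 0.921 and 0.918). Pearson's r takes no account of the size of a change. At 120 min the strain difference was -0.41 for AIM45, -0.26 for CIR1 and -0.11 for VAM7 (limma adjusted p = 0.315, not called). None of VAM7, AIM45 and CIR1 had a called change from 30 to 120 min in cen4- cells. For GCV3 they were KAR4, GCV2, CAF16, AIM45 and VAM7, with r of 0.964, 0.947, 0.934, 0.932 and 0.932. For SHM2 they were CEM1 (0.98), MTD1 (0.973), ADE17 (0.971), ADE2 (0.959) and SER1 (0.943). MTD1 thus ranked 2 of 5947 genes in likeness to SHM2, whereas GCV3 ranked 96 with r of 0.79. These values are descriptions over 10 group means that include the libraries from 0 and 180 min and share each library's scaling.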

How the data were processed

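RNA-seq libraries from 2 yeast strains at 5 times (30 in all) were used. Per the labels, cells were snap frozen, total RNA was treated with DNase, and libraries were prepared by a company. The authors' deposited table gives 1 signal value per gene and library; the values behave as read counts divided by a size factor of the library. STAR 2.6.1, DESeq2 and the build R64 (sacCer3) are named in the submitters' processing notes. For the counting step, neither tool nor strand setting nor annotation release is stated (not given in the sources used here). Overlapping and antisense genes can therefore share reads. Multiplying by the library's step returned whole reads for 100% of values (tolerance 1e-06 of a read). Of 7127 genes, 6047 matched the R64 annotation and 350 were at 0 in all libraries. Replicate libraries differed by more than counting noise (chi-square per degree of freedom 1.48 to 7.75), so none was merged.

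Differences were fitted with limma 3.58.1 (trend and robust options) in R 4.3.3 on log2(value + 1), with a mean for each of 10 groups and 20 residual degrees of freedom, over 5948 genes whose mean reached 10 normalised counts. The pseudocount understates changes of genes with few reads. Alternatives were scaling to equal library totals, pseudocounts of 0.5 and 5, no filter and a filter of 50, the 6 libraries of a time point alone, each library left out, a replicate block, edgeR 4.0.16 and DESeq2 1.42.0 on the recovered reads. Motifs and promoter windows (250 bases before and 50 after the start) were read from R64, and repeated sequence was counted as stretches of 50 bases found elsewhere in the genome.

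The 10 genes and the pathway lists were chosen with earlier results of these data known. Named genes are all 10, the 3 regulators, up to 3 called genes of each other list with the largest difference at 120 min, and the 5 genes most like GCV2, GCV3 and SHM2. Of the list of lipoyl enzymes, LIP3 was not matched by name and is not analysed here.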

Additional observations from a re-analysis of the deposited data

Results flagged for a closer look

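The results here are differences between the strains in the change from 30 to 120 min (change in cen4- minus change in CEN4 cells, log2), tested as an interaction with limma over 5948 genes, that passed an adjusted p of 0.05. Among the glycine cleavage and one-carbon genes they were SHM2 at -0.97, GCV1 at -0.92, GCV3 at -0.91, GCV2 at -0.80 and MTD1 at -0.80, each with a rise in CEN4 and a fall in cen4- cells. Of the purine genes named above, ADE17 was at -0.91, ADE1 at -0.61 and ADE2 at -0.56. ADE17 and ADE2 likewise rose in CEN4 (0.51 and 0.37) and fell in cen4- cells (-0.40 and -0.19). So did SER1 (0.17 and -0.29). The mean of ADE1 went from 5245 to 6313 in CEN4 and from 4254 to 3341 in cen4- cells. In serine synthesis SER1 was at -0.46 and SER2 at -0.26, while SER3 was at 0.94, the one of these genes that fell in CEN4 (-0.31) and rose in cen4- cells (0.63). FMT1 was at 0.65 and MET13 at 0.41, both without a called change in CEN4 cells and with a rise in cen4- cells (0.46 and 0.36). GCN4 was at -0.22, with a fall in both strains (-0.20 and -0.42).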

How the results depend on the processing

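Scaling to equal library totals moved the median strain difference of all genes by 0.07, 0.06 and 0.14 at 30, 60 and 120 min, and the share of called genes that were higher went from 46.1% to 75.7%, from 49.1% to 76.6% and from 50.4% to 78.2%. The 10 genes then had 2 calls at 30 min and 4 at 60 min, and ADE3 at 120 min was at 0.00. The median difference of the strains in the change from 30 to 120 min moved by 0.06 (46.4% to 73.7% higher), and that of the change itself by 0.07 in CEN4 (47.5% to 68.9%) and 0.14 in cen4- cells (52.2% to 81.6%). The supply list had 5 calls at 120 min, but 3 by edgeR and 3 in the fit of the 6 libraries of that time; the cause was not tested. When single libraries were left out, the 10 genes had 3 to 5 calls at 30 min, 4 to 8 at 60 min, 8 to 9 at 120 min and 5 in the change from 30 to 120 min, and the supply list had 3 to 5, with 3 without CEN4 t120 replicate 2 or 3 or cen4- t120 replicate 2. At 120 min and in the change from 30 to 120 min GCV1, GCV2, GCV3, SHM2 and MTD1 kept their direction and call in all these settings. The settings were run for the strain differences of the 10 genes at 30, 60 and 120 min and for their changes from 30 to 120 min. Named genes of the lists were run for the strain difference at 120 min only. Among these results no call was lost or gained with DESeq2, pseudocounts of 0.5 or 5, or no filter. With a filter of 50 FDH1 was not tested. Other calls given above were not run in these settings. Libraries of the strains with the same sample number showed little correlation of their deviations from the group mean (15 pairs, -0.11 to 0.12). These correlations cannot exclude a pairing, and the main fit used none. A replicate block left 4, 8, 9 and 5 calls of the 10 genes at 30, 60 and 120 min and in the change from 30 to 120 min.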

Other observations

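SRG1, a non-coding gene that overlaps the start of SER3 and whose transcription is known to repress SER3, was chosen after its values were seen. SRG1 was at 995.4, 1025 and 1014 normalised counts in CEN4 and at 695.4, 731.3 and 629.3 in cen4- libraries at 120 min, without overlap. The strain difference of SRG1 was -0.29, -0.38 and -0.56 at 30, 60 and 120 min (limma adjusted p = 0.00182, 8.92e-05 and 3.27e-08), while that of SER3 was 0.24, 0.62 and 1.18. Before excision, at 0 min, SRG1 was also lower without overlap, at 1021 ± 64.5 (SD, n = 3) in CEN4 and 829.8 ± 15.6 in CEN4* libraries. SER3 was then at 584.2 ± 21.2 in CEN4 and 670.3 ± 89.3 in CEN4* libraries, with overlap. Reads in the part that both genes share cannot be told apart.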
